A study of Mus musculus with 2 samples.

Results

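The developmental pluripotency associated genes Dppa2, Dppa3, Dppa4 and Dppa5a were examined for H3K9me3, trimethylation of lysine 9 of histone H3, in E14TG2a.4, a line of mouse embryonic stem cells. The genes were chosen by symbol, each with 50 kb on either side of its body, and all 4 were found among 21887 protein-coding genes of RefSeq in mm10 and among 22367 of GENCODE M1 in mm9. The line is male, comes from strain 129/Ola and is labelled with an embryonic age of 3.5 days. The series is 1 group of 2 biological replicates, each from its own biosample of this 1 line, with no second condition and no treatment. A control library is not analysed here. All values are therefore levels within 1 cell line, given per replicate, and no test between conditions was possible. The files are peak lists, so depth is unknown. In mm10 replicate 1 had 161565 narrow peaks and replicate 2 had 198948. The authors also pooled the replicates (203763 peaks) and derived from these lists a replicated list of 123489 peaks, of which 12 lay over the 4 genes and their flanks. Each of these 12 has the bounds and values of a peak of the pooled list. Its fold enrichment, width and q are therefore values of the pooled replicates, not averages of the 2 replicate lists. In mm9 the lists hold wider regions, 43006 in replicate 1 and 53405 in replicate 2.

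H3K9me3 is a mark of silent chromatin, laid down by methyltransferases such as Setdb1 at repeats, imprinting control regions and some genes of the germ line and early embryo. The Dppa genes share a name because they were found through their expression in pluripotent cells, and not all of them are related in sequence. Dppa2 and Dppa4 are neighbouring genes for SAP domain nuclear proteins that act as a pair and, in mouse stem cells, are needed to switch on genes of the early embryo such as Dux and Zscan4. Dppa3, also called Stella or PGC7, encodes a maternal factor that shields the maternal genome and some imprints from loss of DNA methylation in the zygote, and it binds the methylation cofactor Uhrf1. Dppa5a, also called Esg1, encodes a KH domain protein that binds RNA.

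The mark lay on 1 of the 4 genes, Dppa3, where a block of it covered the promoter and the first part of the gene body in both replicates. No list had a peak or region called on the bodies or promoters of Dppa2, Dppa4 and Dppa5a. In the Dppa5a body only 18.2% of the sequences of 32 bases occurred once in mm9, and their part in the lack of calls was not tested. The 50 kb flanks of Dppa2 and Dppa4 held a few narrow peaks of moderate enrichment, and those of Dppa5a held no replicated peak. Sequence from the marked intron of Dppa3 is shown beside sequence from the region that lies upstream of Dppa4 and Dppa2, since in mm9 these are the strongest marked region at a Dppa gene and the one region shared by both replicates in the flanks of the other pair. Each is the 200 bases of the mm9 region richest in CpG, off exons and start sites, read from the plus strand, with CpG in capitals.
Dppa3 intron, chr6:122577601-122577800 (mm9, plus strand): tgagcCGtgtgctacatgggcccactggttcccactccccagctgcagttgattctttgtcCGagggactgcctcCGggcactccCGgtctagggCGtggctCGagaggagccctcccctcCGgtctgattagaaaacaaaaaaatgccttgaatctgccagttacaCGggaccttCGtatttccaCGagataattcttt
Upstream of Dppa4 and Dppa2, chr16:48267601-48267800 (mm9, plus strand): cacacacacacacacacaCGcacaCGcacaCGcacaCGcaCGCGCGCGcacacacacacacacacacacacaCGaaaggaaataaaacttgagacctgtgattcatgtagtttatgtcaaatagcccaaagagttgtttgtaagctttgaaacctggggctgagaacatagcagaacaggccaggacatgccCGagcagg
Both stretches hold 10 CpG. The Dppa3 stretch lies 1173 to 1372 bases after the start site, with 55% GC, and 0% of its bases are high-copy, meaning that they begin a 16-mer with 50 or more copies in mm9. In the stretch upstream of Dppa4 and Dppa2 that share is 68.5%, and most of its CpG fall inside a run of CA repeats. In mm10 the distances of the Dppa3 stretch from the start site fall in a weaker replicated peak, at a fold enrichment of 4.20. They do not fall in the main peak, at 11.1, though no coordinates were converted between builds.

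**Figure D1:**
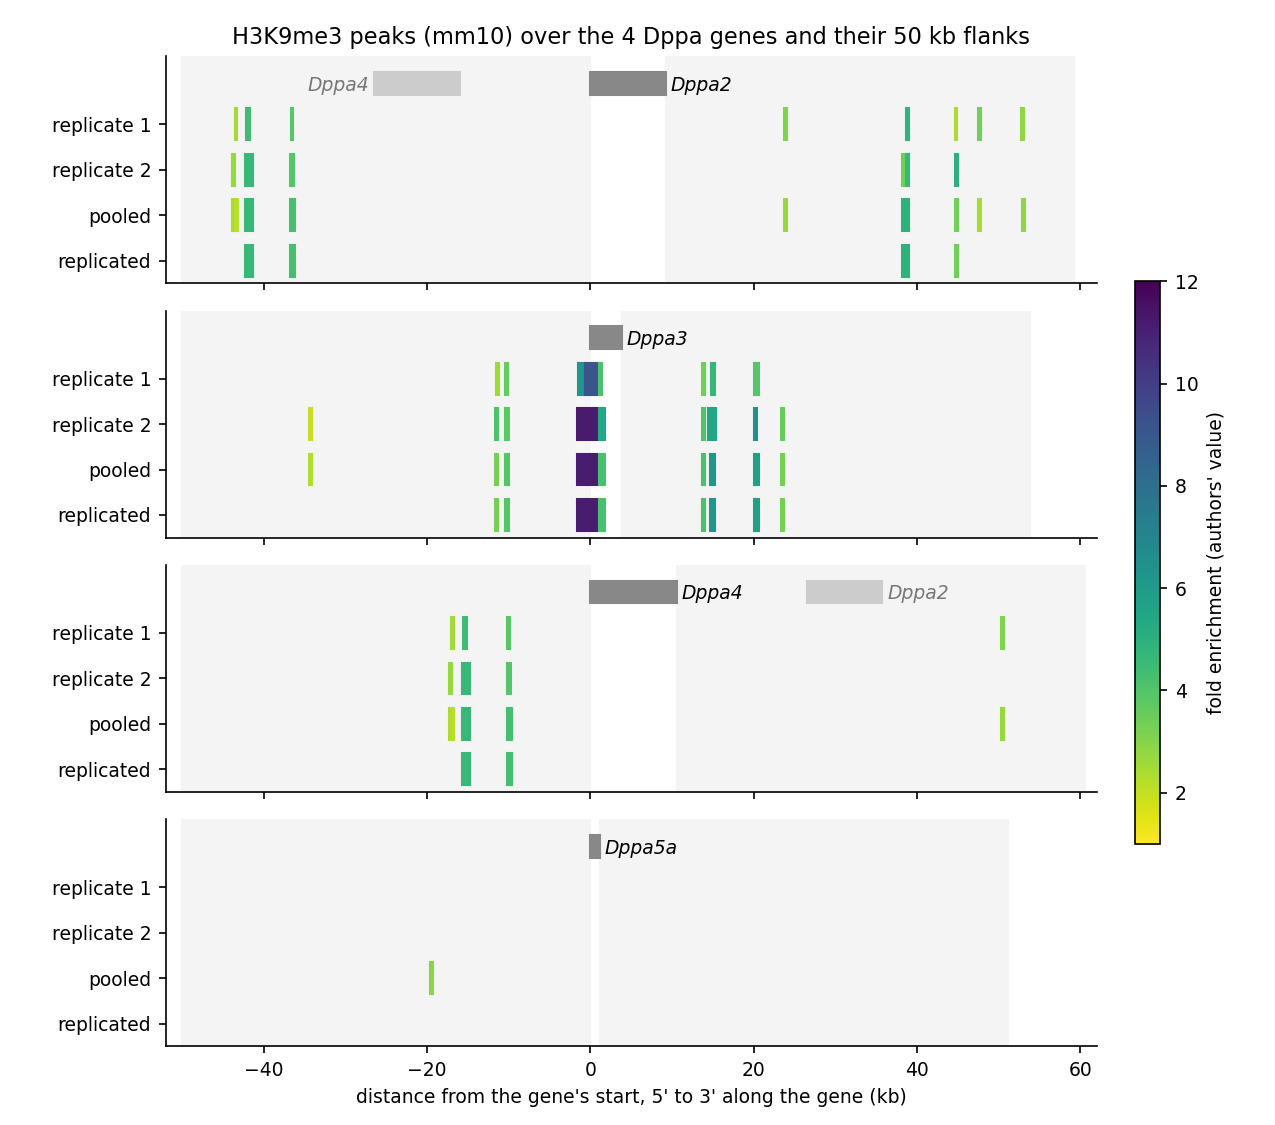
H3K9me3 peaks of the 4 mm10 lists over each Dppa gene (dark box) and its 50 kb flanks (shaded), by distance in kb from the gene's start; colour gives the authors' fold enrichment, and peaks narrower than 0.35 kb are drawn at that width. The darkest block sits at the start of Dppa3, and no peak touches Dppa2, Dppa4 or Dppa5a.

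Dppa3 lies on chromosome 6, from 122626424 to 122630271 in mm10 and from 122576428 to 122580290 in mm9, on the plus strand. The replicated mm10 list had a peak of 2691 bp from 122624778 to 122627468, or −1646 to 1044 bp relative to the start site. Its fold enrichment, the authors' value, was 11.1, with a −log10 q of 51.1 and a summit 293 bp after the start site. A second replicated peak of 713 bp followed, from 1090 to 1802 bp after the start site, at a fold enrichment of 4.20. In the list of replicate 1 alone the block was in 3 pieces, at fold enrichments of 6.24, 9.10 and 4.16. In replicate 2 it was in 2 pieces, at 11.2 and 5.47. The strongest piece of each replicate had its summit at 313 bp in replicate 1 and 344 bp in replicate 2, both after the start site. The upstream edges, at −1550 bp in replicate 1 and −1628 bp in replicate 2, lay close together, while the downstream edge was at 1386 bp in the first list and 1818 bp in that of replicate 2, which also had the higher fold enrichment.

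Compared with the rest of the replicated list, the Dppa3 peak was strong and wide. It had 2691 bp, against a median of 528 bp over all 123489 peaks, of which 2.48% were wider. Its fold enrichment of 11.1 stood against a median of 4.20, and 4.32% of peaks had a higher value. By −log10 q it ranked 5903 of 123489. These ranks describe 1 list and were not tested.

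In mm9 the same promoter was covered from end to end. Promoters were taken as 1 kb on each side of every annotated transcript start, and one counted as marked where bases covered in both replicates overlapped it. The Dppa3 window, merged over its 2 annotated starts, was covered over 100%. The region ran from 122574801 to 122578200 in replicate 1, at a fold enrichment of 5.02, and from 122574801 to 122578400 in replicate 2, at 7.26. The mean was 6.14 ± 1.58 (SD, n = 2), and the third mm9 list of the authors, which names no replicate, gave 6.48. Both regions reach past the first exon and the alternative first exon and stop within the intron before the exon that begins at 122578595. They covered, where both were present, 45.9% of the gene body, and the replicated mm10 peaks covered 45.7% of it.

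**Figure D2:**
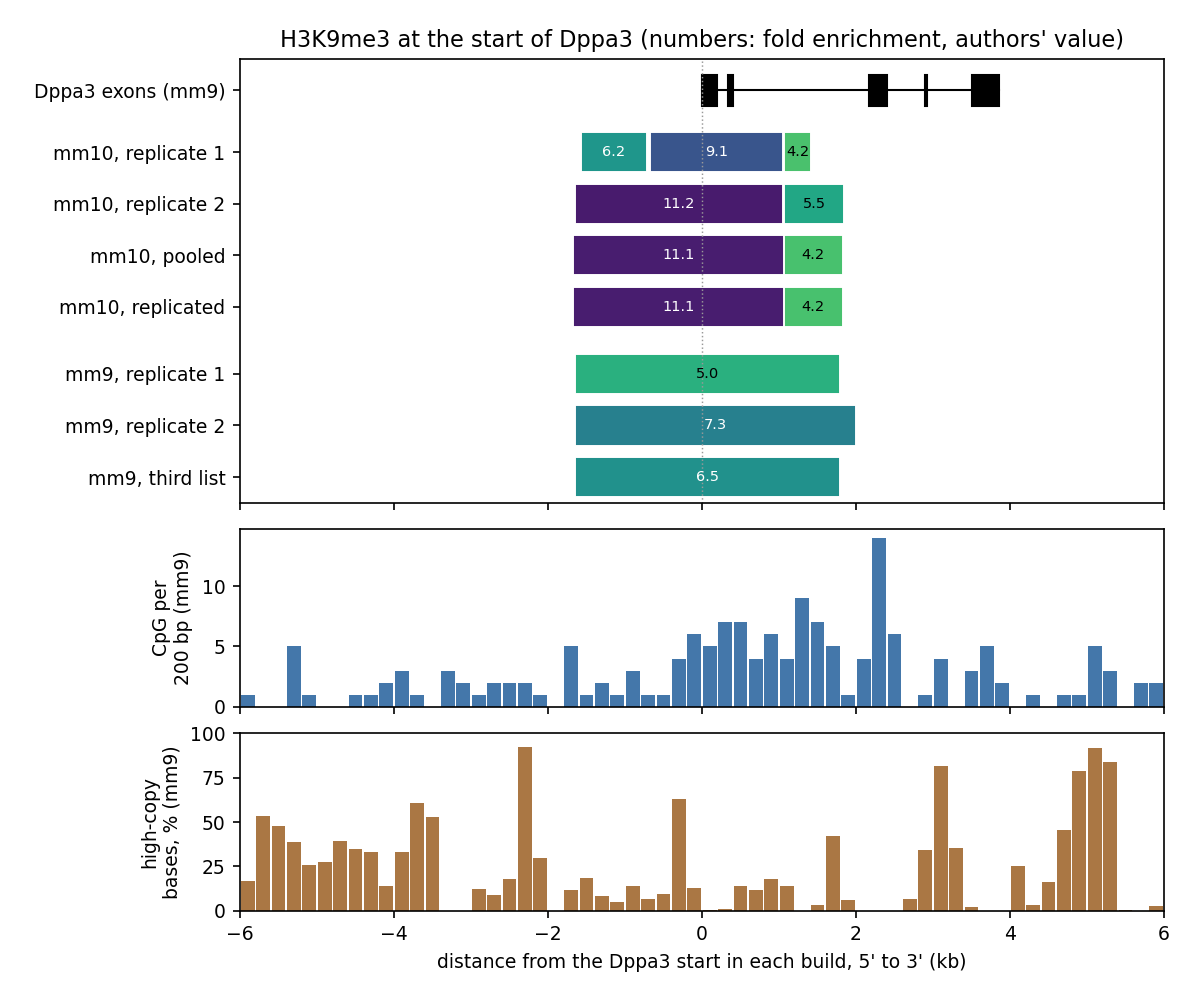
Top, H3K9me3 peaks and regions of each list at the start of Dppa3, by distance in kb from the start site of each build, with the authors' fold enrichment written on each and exons from mm9; middle and bottom, CpG count and percent of high-copy bases per 200 bp in mm9. Every list has a block across the start site that ends before the third exon box, and the mm10 fold enrichment peaks at 9.10 in replicate 1 and 11.2 in replicate 2.

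Of the 4 Dppa genes 1 had a promoter marked in both replicates in mm9, against 5.54% of protein-coding genes, 1239 of 22367. With windows of 5 kb on each side it was again 1 of the 4, against 15% of protein-coding genes. With 4 genes no share can be read from these counts. Among the 1239 marked promoters Dppa3 ranked 236 by mean fold enrichment, at 6.14, against a median of 3.80 and a 90% quantile of 7.60. The median marked promoter was covered over 34.0% of its window, and 17.4% of them were covered completely, as Dppa3 was. The value of replicate 2 was 1.44 times that of replicate 1 at Dppa3. The median ratio over all marked promoters was 1.31, and replicate 2 was higher at 89.8% of them.

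The 5 marked protein-coding promoters whose values in the 2 replicates were nearest to those of Dppa3, by distance on the log2 scale, were Rrn3, Sardh, Gm17462, Rab11b and Prlhr. Rrn3 had 5.07 in replicate 1 and 7.32 in replicate 2, a distance of 0.0195. Prlhr, the fifth, had 4.87 and 7.28, a distance of 0.0438. The likeness rests on 2 values per gene. Their windows were covered to different extents, from 12.9% at Sardh to 100% at Gm17462.

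**Figure D3:**
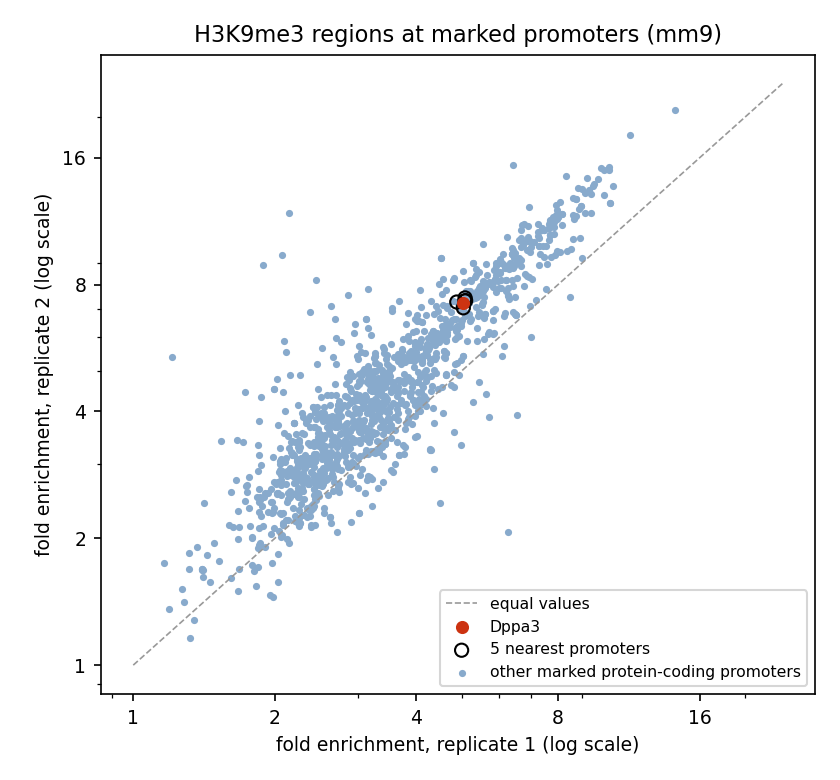
Fold enrichment of the strongest H3K9me3 region over each marked protein-coding promoter in mm9, replicate 1 on the x axis and replicate 2 on the y axis, both log scales; the dashed line marks equal values. Dppa3, at 5.02 and 7.26, lies above the line in the upper part of the cloud, as do its 5 nearest promoters.

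The sequence under the Dppa3 block was of moderate CpG content and mostly single copy. The 3400 bp covered in both replicates held 74 CpG, or 21.8 per kb, at 46.9% GC. High-copy sequence made up 14.6% of it, and 93.6% of its 32-mers occurred once in mm9. In the promoter window around the gene's own 5′ end the CpG density was 22.0 per kb, against a median of 30.5 over 22367 protein-coding promoters. Dppa5a had 20.5, Dppa4 13.5 and Dppa2 13.0 per kb. High-copy sequence made up 15.1% of the Dppa3 window, 7.80% at Dppa5a, 13.7% at Dppa4 and 18.4% at Dppa2, against a median of 4.05%. All 4 genes lay below the median in CpG density, with the marked gene the highest and close to Dppa5a. In high-copy share it was neither first nor last of the 4. Exact matches to TGCCGC, a motif bound by the imprinting factor Zfp57, and to the E-box CACGTG were counted on both strands. No copy of either was in any of the 4 windows or in the Dppa3 block, while 43.4% of all promoter windows held TGCCGC and 27.8% held CACGTG.

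Further peaks lay in the flanks of Dppa3, all of them weaker than its main peak. The replicated list held 8 peaks over the body and flanks, at fold enrichments from 3.30 to 11.1, of which 2 form the block. Upstream, 2 lay about 10 kb and 11 kb from the body, at distances of 9.97 and 11.3 kb and fold enrichments of 3.94 and 3.30. Downstream, 4 lay at distances of 9.92, 10.8, 16.2 and 19.5 kb, at 4.16, 6.18, 5.70 and 3.30. Each of these except the farthest downstream one had a peak in both replicate lists, and that one had a peak in replicate 2 only. In mm9 both replicates covered the bases from 122565001 to 122566400, with regions at 4.35 ± 0.409 (SD, n = 2). Both also covered those from 122590201 to 122592200, with regions at 3.65 ± 1.27. The region of replicate 2 was the wider upstream, and that of replicate 1 was the wider downstream. The upstream region was poor in CpG, with 2.14 per kb, and high-copy over 68.9%. Only 40.6% of its 32-mers occurred once in the genome, against 93.6% in the block. A weak peak 34.2 kb upstream, inside the body of Apobec1, was in replicate 2 at 1.98 and in the pooled list at 2.33, and not in replicate 1 or the replicated list. The cytidine deaminase gene Apobec1 and Gdf3, which encodes a TGF beta family ligand, had no marked promoter and 0% of their bodies under replicated peaks. The pseudogene Gm8460 also had 0%. The annotated small nucleolar RNA LOC115490479 was covered over 100% by the downstream peak in every mm10 list. Nanog, the pluripotency factor gene on the same chromosome and outside the window, had 0% of its body covered and no marked promoter.

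Dppa4 and Dppa2 lie on chromosome 16, from 48283735 to 48294292 and from 48310274 to 48319513 in mm10, both on the plus strand and 15.98 kb apart. Their windows share 84.02 kb, 76.9% of that of Dppa2, so their flank values are not independent. No peak of any mm10 list and no region of any mm9 list touched either body or came within 1 kb of either start site. The nearest replicated peak lay 9.63 kb upstream of Dppa4, at a fold enrichment of 4.30 in the replicated list, with 3.90 in replicate 1 and 3.94 in replicate 2. A second, of 962 bp, ended 41.3 kb upstream of Dppa2 and had 4.65, with 4.42 in replicate 1 and 4.65 in replicate 2. At both peaks the replicates lay close to each other. In mm9 both replicates had a region upstream of Dppa4, from 48266601 to 48269000 where both covered it, at 2.88 ± 0.0819 (SD, n = 2). It ended 14.8 kb from the Dppa4 start in mm9, and the 962 bp peak ended 14.7 kb from it in mm10, though whether they cover the same bases was not tested. Downstream of Dppa2, replicated peaks lay 28.9 and 35.4 kb from the body, at 4.92 and 3.39. The nearer one had 4.86 in replicate 1 and, in 2 pieces, 3.37 and 4.63 in replicate 2. At the farther of these the replicates stood apart, with 2.34 in replicate 1 and 4.99 in replicate 2. In mm9 a region 28.4 kb downstream of the Dppa2 body was in replicate 2, at 1.63, and in the third list, at 2.14. Replicate 1 had no mm9 region there. No mm9 list had one farther downstream within 50 kb, or between Dppa4 and the region upstream of it.

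Dppa5a, on chromosome 9 from 78367052 to 78368199 in mm10 and on the minus strand, had no peak within 50 kb in replicate 1, replicate 2 or the replicated list. The pooled list held 1 weak peak of 175 bp, 19.4 kb upstream, at a fold enrichment of 2.96. The nearest replicated peak lay 50.4 kb from the body, just outside the window and within the neighbouring germ cell helicase gene Ddx43. Replicated peaks covered 1.67% of the Ddx43 body, against 0.744% in the list of replicate 1 and 0% in that of replicate 2. The other neighbours, Ooep, a gene of the oocyte and early embryo, Gsta2, a glutathione transferase gene, and Omt2b, had 0% of their bodies covered and no marked promoter. In mm9 the replicate 1 list had no region within 50 kb, and replicate 2 had one of 800 bp, 12.5 kb downstream, at 4.67. Dppa5a has close copies in the genome, and 18.2% of the 32-mers in its body occurred once in mm9, with 56.1% in its promoter window. In Dppa2, Dppa3 and Dppa4 bodies that share was 81.2%, 83.9% and 74.5%. The sources used here do not say how reads with several matches were handled. The part of repeated sequence in the lack of peaks over the Dppa5a body was not tested. Over the whole window the share was 77.0%. The annotated copies Dppa5b and Dppa5c, on the same chromosome, also had 0% of their bodies covered in each mm10 list.

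**Figure D4:**
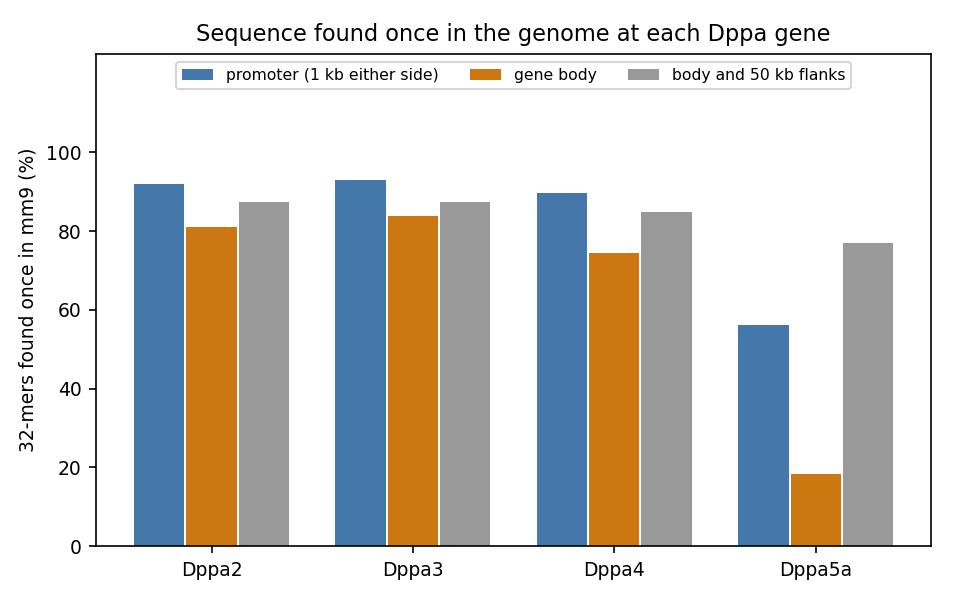
Percent of 32-mers that occur once in mm9, for the promoter window, the gene body and the body with 50 kb flanks of each Dppa gene; bars start at 0. The Dppa5a body stands at 18.2%, while the bodies of Dppa2, Dppa3 and Dppa4 stand between 74.5% and 83.9%.

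Counted over body and flanks, replicated mm10 peaks covered 5.80% of the Dppa3 window, with 4.46% in replicate 1 and 5.91% in replicate 2. At Dppa2 the replicated value was 2.55%, with 1.96% and 2.42%, and at Dppa4 it was 1.39%, with 1.16% and 1.40%. At Dppa5a all 3 values were 0%. The replicated values rest on bounds of pooled peaks, so they need not lie between those of the replicates. The ranges of the replicates, each of 2 values, did not overlap between any pair of the 4 windows. How often this holds among other genes was not computed, and the windows of Dppa2 and Dppa4 share most of their bases. Over all 21887 protein-coding genes the median was 1.81%, with quartiles at 0.468% and 4.38%. Dppa3 was above the upper quartile, with 82.3% of genes lower, Dppa2 and Dppa4 lay between the quartiles, with 59.8% and 43.4% of genes lower, and Dppa5a was among the 16.7% of genes with no peak. A replicated peak lay over the body or flanks of 3 of the 4 Dppa genes, against 83.3% of protein-coding genes. One lay over the body of 1 of the 4, against 30.8% of protein-coding genes. With so few genes neither count sets them apart from those shares. At Dppa3 99.1% of genes had less of their body covered. This share depends on gene length, with a body of 3848 bp at Dppa3, and length was not adjusted for. The distance from the body to the nearest replicated peak was 28.9 kb at Dppa2, 0 at Dppa3, 9.63 kb at Dppa4 and 50.4 kb at Dppa5a, against a median of 8.54 kb over all protein-coding genes.

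**Figure D5:**
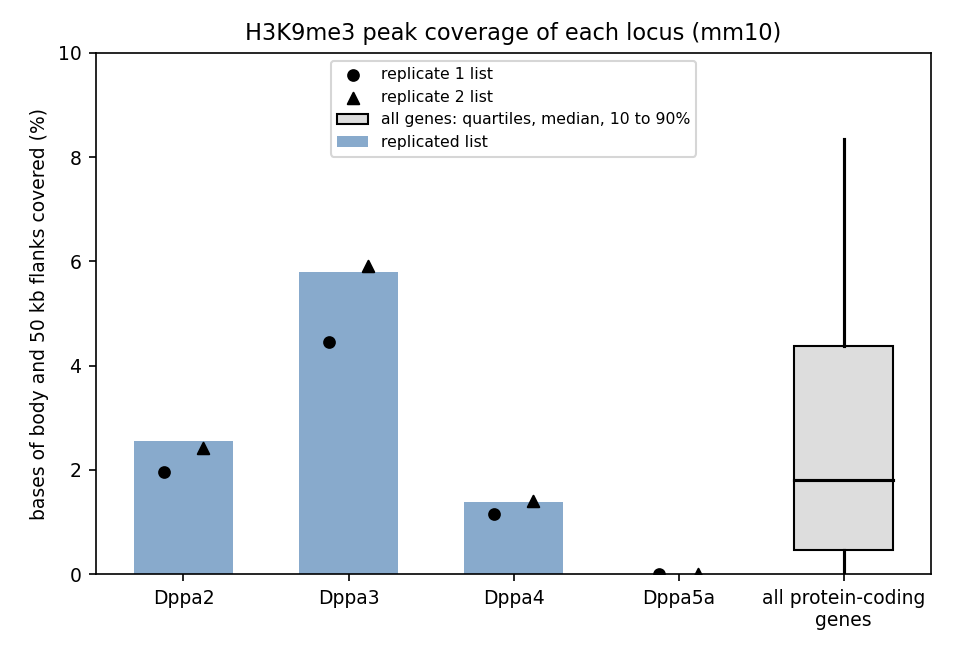
Percent of the body and 50 kb flanks under H3K9me3 peaks in mm10 for each Dppa gene (bar, replicated list; circle, replicate 1; triangle, replicate 2) and, at the right, for 21887 protein-coding genes (box, quartiles and median; line, 10% to 90% quantile). Dppa3 stands at 5.80%, above the upper quartile of 4.38%, and Dppa5a at 0%.

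Gene lists for Dppa3 partners, the 2-cell embryo, pluripotency, germ cells and the Dppa family were counted in the same way. They were chosen with earlier results of these data known. With so few genes in each list, no share can be read from the counts. Among 12 genes for partners and counterparts of Dppa3 in DNA methylation and imprint protection, Uhrf1 and the maintenance methyltransferase gene Dnmt1 among them, 0 had a marked promoter, against 5.54% of protein-coding genes. Their median window coverage was 2.06%, against 1.81% over all protein-coding genes. Of 15 listed genes of the 2-cell embryo, downstream of Dppa2 and Dppa4, 10 were matched in mm9. Among these 10, 3 were marked, against 5.54% of protein-coding genes. The marked ones were Zscan4b at 4.64 ± 3.20 (SD, n = 2), Tdpoz3 at 3.94 ± 0.855 and Zscan4e at 3.82 ± 1.93. The entry Dux was not marked in mm9 and had no match in mm10. The listed entries Duxf3 and Tcstv3, matched only in mm10, had 8.98% and 32.5% of their bodies under replicated peaks. The other listed genes matched in mm10 had 0%, Zscan4b and Tdpoz3 among them. Zscan4 and Tdpoz genes lie in clusters of near-identical copies, so their values are uncertain, and at Zscan4b the replicates stood apart, at 2.38 in replicate 1 and 6.91 in replicate 2. The median window coverage was 6.02% over the 12 genes matched in mm10, against 1.81% over all protein-coding genes, and this difference was not tested. Of 20 other pluripotency genes 0 were marked, Pou5f1 and Nanog among them, against the same 5.54%. Their median coverage was 1.10% over the 21 matched in mm10. Of 12 germ cell genes 2 were marked, against 5.54% of protein-coding genes. The marked ones were Sycp1 of the synaptonemal complex at 2.92 ± 0.898 and Mov10l1, a piRNA helicase gene, at 1.87 ± 0.388. The median coverage of the 14 matched in mm10 was 1.52%. Of 6 related or neighbouring family genes found in mm9, Dppa1 and Dppa5b among them, 0 were marked, against the same 5.54%. The 6 matched in mm10, which do not include Dppa5b, had a median coverage of 3.92%.

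Peak lists of this mark give no expression, so the identity of the cells could not be checked from RNA. Of 6 stem cell markers, Pou5f1, Nanog, Sox2, Klf4, Esrrb and Zfp42, 0 had a marked promoter, against 5.54% of protein-coding genes. Of 7 genes of fibroblasts, which can serve as feeder cells, 2 had a marked promoter, Lum at 4.91 ± 0.0465 and S100a4 at 2.59 ± 0.50 (SD, n = 2), against the same 5.54%. With so few genes in each list these counts say nothing of the identity of the cells. The median window coverage of the 7 fibroblast genes was 1.45%.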

How the data were processed

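H3K9me3 ChIP-seq peak lists of 2 replicates of E14TG2a.4 were used as deposited. The authors deposited a fold enrichment (a linear ratio) for every peak, and the sources used here do not name its reference. The mm10 lists (narrowPeak) hold −log10 p and −log10 q, and the mm9 lists (broadPeak) a linear p-value and q-value, by the column order of the file types that the authors' deposited file notes name. These notes also state that the pooled mm10 list came from alignments of both replicates. Aligner, peak caller and their versions: not given in the sources used here.

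Overlaps of at least 1 bp, covered bases, promoters and k-mers were computed with Python 3.11.15, numpy 2.4.6 and numba 0.67.0, on chromosomes 1 to 19, X and Y. Genes came from RefSeq (GRCm38.p6) for mm10 and GENCODE M1 for mm9, and sequence from mm9. Strand came from GENCODE M1. No coordinates were converted between builds. The RefSeq promoter table matched 0 of the 4 genes, so no promoter sequence was printed. The interval code was tested on simulated data. No test was run, since the series has 1 group. SDs of 2 replicates describe values called separately in each list.

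The members and lists were chosen with earlier results of these data known. Named genes were the members, genes in their flanks, up to 4 marked genes per list or else its first 2, and the 5 promoters nearest to a marked member. Dppa5c, Dux, Duxf3 and Tcstv3 were named after their values were seen. Alternatives were the other lists, minimum values of 2 for −log10 q and 4 for fold enrichment, promoters of 2.5 kb and 5 kb or at the 5′ end alone, an overlap of 200 bp and flanks of 10 and 100 kb.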

Additional observations from a re-analysis of the deposited data

How the results depend on the processing

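Dppa3 was the 1 marked promoter of the 4 genes under all 8 alternatives run. Its fold enrichment, 6.14, ranged from 5.02 to 7.26 when a replicate was left out and was 6.48 with the third mm9 list. The number of marked protein-coding promoters, 1239, became 2030 with windows of 2.5 kb, 3365 (15%) with 5 kb, 1895 with the third list and 406 with fold enrichment limited to 4 or more. Without one replicate it was 1415 to 1751. Window coverage moved with the list and the flank. The pooled list gave 3.70% at Dppa2, 1.96% at Dppa4 and 0.173% at Dppa5a. A fold enrichment of at least 4 gave 2.19% at Dppa2 and 4.74% at Dppa3. Flanks of 10 kb gave 0% at Dppa2 and 14.7% at Dppa3. Flanks of 100 kb gave 3.77% at Dppa3, 5.33% at Dppa4 and 0.231% at Dppa5a. Flanks differ by construction, since they add or remove sequence. Without one replicate coverage was 1.96% to 2.42% at Dppa2, 4.46% to 5.91% at Dppa3, 1.16% to 1.40% at Dppa4 and 0% at Dppa5a. The cause of the other moves was not tested. No paired analysis was possible because the series has 1 group. Peak lists without read counts leave depth unknown, so a gene without a peak is one where none was called.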

Other observations

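Downstream of Dppa2, calls at similar distances from its start came from different replicates in the 2 builds. In mm10 a peak 14.6 kb from the body was in the lists of replicate 1, at a fold enrichment of 3.12, and of the pooled replicates, at 2.70, and not in that of replicate 2. In mm9 a region of 600 bp was in the list of replicate 2, at 5.22, and not in that of replicate 1. It ran from 23211 to 23810 bp after the start of Dppa2. The mm10 peak of replicate 1 ran from 23836 to 24040 bp after the start, so by this distance the 2 calls did not overlap. Coordinates were not converted between builds, so whether both calls cover the same bases was not tested.

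Near Dppa5a the builds also differed. The mm9 region of replicate 2, 12.5 kb downstream of the gene at a fold enrichment of 4.67 and also in the third mm9 list at 4.29, had no peak on that side of the gene within 50 kb in any of the 4 mm10 lists.

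The CpG densest 200 bp near the Dppa3 start in mm9 lay outside the block. Bins within 6 kb of the start site held up to 14 CpG, at 2200 bp after the start, beyond the edge of the region in both replicates. The bins inside the region held at most 9.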
